A study of Mus musculus with 20 samples.

Results

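The genes described are those of ChREBP, the carbohydrate response element binding protein encoded by Mlxipl, and of 7 liver genes of glycolysis, fructose breakdown and glucose sensing that are known as its targets or belong to the same pathway: Gckr, Pfkl, Pfkfb1, Pklr, Khk, Gpd1 and Txnip. Rows were taken by these symbols in the platform annotation. Of the 8 listed genes, 7 had a row in the deposited table, among 22206 transcript clusters in all, a transcript cluster being the array's unit for the transcripts of a locus. Pfkfb1, which encodes the liver isoform of the enzyme that makes and breaks down fructose 2,6-bisphosphate, had no row under its symbol and is not analysed here. The clusters of the measured genes are TC0500001575.mm.2 for Mlxipl, TC0500000319.mm.2 for Gckr, TC1000002438.mm.2 for Pfkl, TC0300000747.mm.2 for Pklr, TC0500000306.mm.2 for Khk, TC1500001023.mm.2 for Gpd1 and TC0300000949.mm.2 for Txnip. RefSeq places Mlxipl, Gckr and Khk on chromosome 5, Pklr and Txnip on chromosome 3, Pfkl on chromosome 10 and Gpd1 on chromosome 15.

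Liver RNA was measured on Affymetrix arrays in 20 adult sons of wild-type C57BL/6NCr dams, and the title of the study concerns glucose tolerance of male offspring in relation to the mother's brown fat. Each group held 5 males aged 4 to 5 months, and the groups differed in the temperature at which their dams were pregnant: 10, 18, 23 or 30 °C. Dams of the 30 °C group had 3 weeks at that temperature before breeding and dams of the 10 °C and 18 °C groups had 2 weeks, while sires had 3 days. The 23 °C breeding pairs lived at the usual animal house temperature and served as controls. Mothers and pups of all groups were moved to 23 °C on the day of birth, and the sons ate a standard chow diet freely. What the groups share is therefore genotype, sex, diet and housing after birth. The 10 °C and 18 °C groups had the same length of acclimation, while in comparisons with 30 °C or 23 °C sons the acclimation of the dams differed along with the temperature, and these cannot be told apart. The labels name no litter, dam, time of day, feeding state at sampling or processing batch, so p-values measure the spread between these arrays, and their number limits the precision. The exposure was given to the dams, and whether sons of a group share a litter is not known. If they do, the limma and permutation p-values printed here could be too small. Each son is referred to by his dam's temperature and the animal number in the labels.

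The liver label was borne out by its markers: all 6 hepatocyte markers lay above the negative controls, with a mean log2 level of 18.9 in every group. Markers of Kupffer cells (6 of 6) and of the sinusoidal endothelium (6 of 6) were also above the negative control level. Most markers of cholangiocytes, lymphocytes, skeletal muscle, adipocytes and exocrine pancreas were not, with Sox9, Ckm and Amy2a5 as the exceptions. In a bulk sample such as this, fewer cells of a type and less RNA per cell cannot be told apart.

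ChREBP is a transcription factor of hepatocytes that responds to glucose metabolites. Together with its partner Mlx it binds carbohydrate response elements, pairs of E-box-like sequences, and raises the transcription of genes that turn sugar into pyruvate, glycerol phosphate and fat. Its gene has an alternative upstream promoter that gives a shorter, more active isoform, ChREBP beta. The table has a single row for Mlxipl, so the isoforms are not separated here.

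RefSeq promoter windows, from 250 bases before to 50 bases after each transcript start on GRCm38.p6, were available for 7 of the 8 listed genes. Gpd1 was the exception. Among these windows were searched the E-box CACGTG, which reads the same on both strands, and the carbohydrate response element, taken as CACGTG, 5 bases of any kind and CACGTG again with at most 2 mismatches in the 12 letters compared. The full element with its mismatches was present in windows of Pklr and Txnip and in 313 of all 32851 windows (0.953%). An E-box, with or without a second one at that spacing, was present in 2349 of all windows (7.15%). Without a second one it was present upstream in 1 of the 2 Mlxipl windows and in the Khk window. Each of these 4 is printed below over the 250 bases before the start, 5′ to 3′ on the + strand. Capitals mark the whole matched stretch, which for the element includes the 5 bases of any kind and the mismatched letters.
Pklr chr3:89136373-89136622: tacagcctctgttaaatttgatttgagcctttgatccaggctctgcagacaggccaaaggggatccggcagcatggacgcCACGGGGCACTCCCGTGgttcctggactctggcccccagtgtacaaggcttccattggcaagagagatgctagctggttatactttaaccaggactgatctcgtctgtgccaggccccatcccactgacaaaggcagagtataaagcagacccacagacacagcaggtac
Txnip chr3:96557707-96557956: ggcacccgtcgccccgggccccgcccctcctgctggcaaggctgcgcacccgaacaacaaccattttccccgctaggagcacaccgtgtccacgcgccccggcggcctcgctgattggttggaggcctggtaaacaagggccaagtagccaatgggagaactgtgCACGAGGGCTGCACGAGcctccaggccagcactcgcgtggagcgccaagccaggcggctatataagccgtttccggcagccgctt
Mlxipl chr5:135089640-135089889: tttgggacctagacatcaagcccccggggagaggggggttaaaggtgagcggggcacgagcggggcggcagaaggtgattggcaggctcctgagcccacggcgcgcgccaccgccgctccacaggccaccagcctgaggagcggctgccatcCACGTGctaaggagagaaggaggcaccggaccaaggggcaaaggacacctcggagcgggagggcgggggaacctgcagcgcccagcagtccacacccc
Khk chr5:30921309-30921558: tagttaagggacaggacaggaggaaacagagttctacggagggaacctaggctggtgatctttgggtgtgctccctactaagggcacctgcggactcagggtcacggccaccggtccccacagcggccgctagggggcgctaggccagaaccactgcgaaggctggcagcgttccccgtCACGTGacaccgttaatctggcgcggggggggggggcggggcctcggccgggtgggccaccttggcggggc
The Pklr match, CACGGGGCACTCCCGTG, lay 170 to 154 bases upstream of the start and the Txnip match, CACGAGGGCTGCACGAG, 85 to 69 bases upstream. The E-box began 98 bases upstream in Mlxipl and 71 bases upstream in Khk. Windows of Gckr, Pfkl and Pfkfb1, the other Mlxipl window and the other Pklr window held neither set of letters. A match is a description of letters, not of binding.

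Across the 8 comparisons of maternal temperature, 0 of the 7 measured genes passed limma's test at an adjusted p of 0.05. The whole table gave little more: 0.00901% of clusters passed between 10 °C and 23 °C offspring, and 0% in each of the other 5 pairwise comparisons, the 4-group test and the slope on temperature. These counts over all clusters depended on a control array: without 23 °C animal 23, 22 clusters passed between 10 °C and 23 °C, 3 between 18 °C and 23 °C and 7 in the 4-group test, but 0 of the 7 genes. At an unadjusted limma p under 0.05 the genes were 2 of 7 between 10 °C and 23 °C (11.6% of all clusters), 3 between 18 °C and 23 °C (9.25%), 0 between 30 °C and 23 °C (4.84%) and 2 between 10 °C and 30 °C (6.76%). They were 4 of 7 between 18 °C and 30 °C (8.21%), 2 between 10 °C and 18 °C (8.1%), 3 in the 4-group test (9.86%) and 2 for the slope (8.15%). The exact permutation tests of the pairwise differences and the permutation test of the slope, adjusted over all clusters, also passed 0 of 7. Groups without overlap occurred for 1 of the 7 genes between 10 °C and 23 °C (2.45% of clusters) and for 1 between 18 °C and 23 °C (1.81%), Mlxipl in both. No gene of the 7 was free of overlap between 30 °C and 23 °C (0.752%), 10 °C and 30 °C (0.982%), 18 °C and 30 °C (1.41%) or 10 °C and 18 °C (1.42%). The 3 comparisons against 23 °C use the same 5 control arrays. Between 30 °C and 23 °C offspring the 7 differences ran from -0.26 to 0.11 on the log2 scale, and the smallest limma adjusted p was 0.987.

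**Figure D1:**
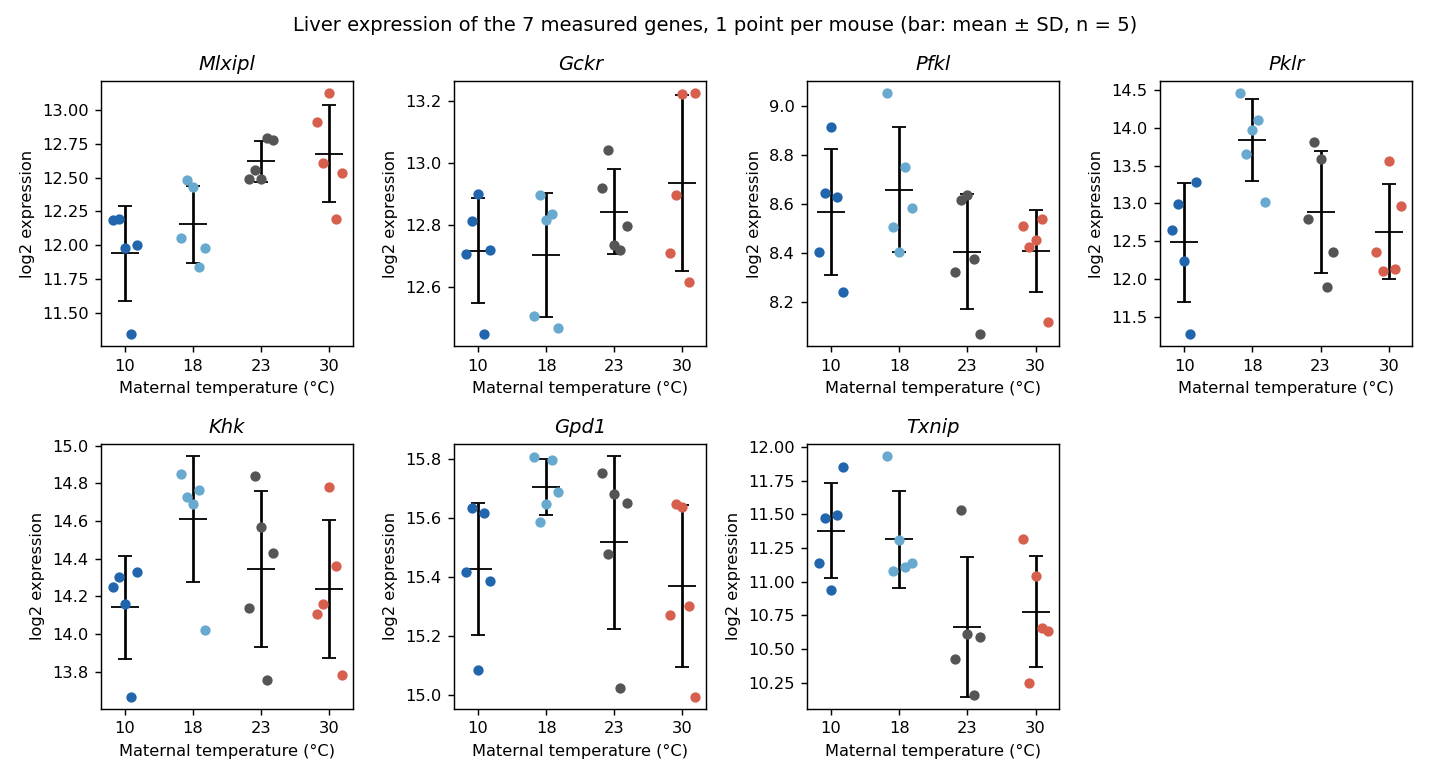
Each panel plots the log2 expression of a gene (vertical axis, scaled per gene) against maternal temperature in °C, 1 point per mouse, with the group mean ± SD (n = 5) as a bar. Mlxipl is lower in all 10 °C and 18 °C sons than in any 23 °C son, Pklr has its highest mean at 18 °C, and Txnip has its higher means at 10 and 18 °C.

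Mlxipl, the gene of the transcription factor itself, had lower levels in sons of cold-exposed dams, although the differences did not pass over all clusters. In the 10 °C sons the log2 values were 12.19 in animal 2, 12.20 in animal 4, 11.98 in animal 5, 11.34 in animal 6 and 11.998 in animal 8. The 18 °C sons had 12.05 in animal 1, 12.48 in animal 3, 12.43 in animal 4, 11.84 in animal 5 and 11.98 in animal 7. Controls of 23 °C dams had 12.49 in animal 1, 12.56 in animal 2, 12.49 in animal 15, 12.79 in animal 17 and 12.78 in animal 23. All 10 arrays of the cold-dam groups thus lay below all 5 controls. Sons of 30 °C dams had 12.92 in animal 4, 12.61 in animal 5, 13.13 in animal 6, 12.19 in animal 7 and 12.54 in animal 8. That group spread on both sides of the controls, and its animal 7 lay level with the top of the 10 °C group.

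The Mlxipl means ± SD (n = 5) were 11.94 ± 0.35 at 10 °C, 12.16 ± 0.28 at 18 °C, 12.62 ± 0.15 at 23 °C and 12.68 ± 0.36 at 30 °C, an order that follows the temperature. The 10 °C sons averaged 0.68 below the controls (log2 difference -0.68 ± 0.19 SE, a 1.61-fold lower level, limma adjusted p = 0.169, exact permutation p = 0.0079, the smallest that 5 against 5 allows). Between 18 °C sons and controls the difference was -0.47 ± 0.19 (limma adjusted p = 0.470, exact permutation p = 0.0079). Against the 30 °C sons the 10 °C group stood at -0.74 ± 0.19 (limma adjusted p = 0.662) and the 18 °C group at -0.52 ± 0.19 (limma adjusted p = 0.472). The 2 cold-dam groups differed by -0.22 ± 0.19 (limma adjusted p = 0.812), and by -0.07 without 10 °C animal 6, the lowest array. Neither these neighbours nor those at 23 and 30 °C differed beyond their spread, and the step from 18 to 23 °C did not pass either.

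Taken against temperature as a number, Mlxipl was the steepest of the 7 genes. Its slope was 0.40 ± 0.091 SE log2 units per 10 °C (95% interval 0.22 to 0.59), a 1.32-fold higher level per 10 °C. By unadjusted p it held place 7 of the 22206 clusters (limma p = 0.000165, permutation p = 0.00022), yet the limma adjusted p was 0.444. The smallest limma adjusted p of any cluster for the slope was 0.217. Leaving out each array in turn gave slopes from 0.34, without 10 °C animal 6, to 0.46, without 30 °C animal 7. Without the 23 °C controls, whose dams were not moved between temperatures, the slope was 0.37. In the 4-group test Mlxipl held place 71 by p (limma adjusted p = 0.345).

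**Figure D2:**
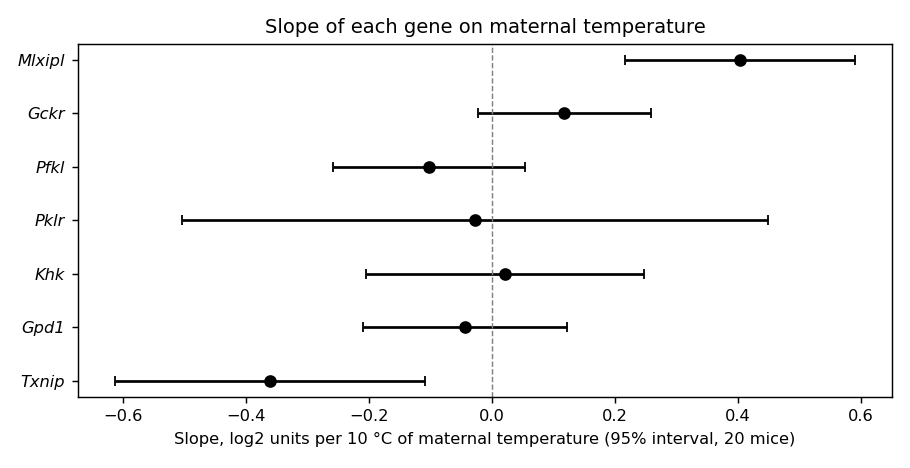
Slopes of the 7 genes on maternal temperature (horizontal axis, log2 units per 10 °C) with 95% intervals from the fit of 20 mice. The intervals of Mlxipl (0.22 to 0.59) and Txnip (-0.61 to -0.11) do not include 0, although neither passed the adjustment over all clusters.

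Some array measures averaged higher in 1 or both of the cold-dam groups, as Txnip did and opposite to Mlxipl. The mean of the negative control rows was instead lower in both, at 4.53 ± 0.03 at 10 °C and 4.49 ± 0.07 at 18 °C (SD, n = 5). It was 4.63 ± 0.09 at 23 °C and 4.59 ± 0.06 at 30 °C. The mean of the background control rows was 3.71 ± 0.02 (SD, n = 5) in 10 °C and 3.71 ± 0.04 in 18 °C arrays, against 3.65 ± 0.02 at 23 °C and 3.66 ± 0.06 at 30 °C. With that level as a covariate the Mlxipl slope was 0.44 per 10 °C and the difference of 10 °C sons from controls -0.89. The mean log2 level of the 6 Kupffer cell and macrophage markers ran from 7.15 to 7.81 at 10 °C, 7.005 to 8.001 at 18 °C, 6.57 to 7.41 at 23 °C and 6.86 to 7.66 at 30 °C. The 6 markers of the sinusoidal endothelium averaged 8.93 ± 0.19, 9.07 ± 0.28, 8.82 ± 0.18 and 8.80 ± 0.29 (SD, n = 5) from 10 to 30 °C. Of 6 stellate cell markers 5 lay above the negative controls, and the list averaged 7.97 ± 0.25, 7.75 ± 0.10, 7.81 ± 0.18 and 7.78 ± 0.05, highest at 10 °C only. The part of these cells in the results was not tested.

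Gckr, which encodes a regulatory protein of hepatic glucose metabolism, differed little between groups. Its log2 values ran from 12.45 to 12.90 at 10 °C, 12.47 to 12.90 at 18 °C, 12.72 to 13.04 at 23 °C and 12.62 to 13.23 at 30 °C, so that all groups overlapped. The means were 12.72 ± 0.17, 12.71 ± 0.20, 12.84 ± 0.14 and 12.94 ± 0.28 (SD, n = 5) in that order. Its slope was 0.12 ± 0.068 SE per 10 °C, with a 95% interval from -0.02 to 0.26 (limma adjusted p = 0.671). The difference from 30 °C sons was -0.22 for the 10 °C group (-0.15 without 30 °C animal 8) and -0.23 for the 18 °C group.

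Pfkl, the liver subunit of phosphofructokinase at the committed step of glycolysis, also overlapped between all groups. Its group means were 8.57 ± 0.26 at 10 °C, 8.66 ± 0.25 at 18 °C, 8.41 ± 0.23 at 23 °C and 8.41 ± 0.17 at 30 °C (SD, n = 5). The 18 °C sons stood 0.25 ± 0.16 SE above both the 23 °C and the 30 °C sons (limma adjusted p = 0.656 and 0.712), and by 0.16 and 0.15 without 18 °C animal 1, which had the highest value of 9.05. The slope was -0.10 ± 0.076 per 10 °C, with a 95% interval from -0.26 to 0.05 (limma adjusted p = 0.756).

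Pklr, the liver pyruvate kinase that forms pyruvate at the end of glycolysis and a classical ChREBP target, had its highest mean in the 18 °C sons. The values there were 14.46 in animal 1, 13.66 in animal 3, 13.97 in animal 4, 14.10 in animal 5 and 13.02 in animal 7. In 10 °C sons they were 12.64 in animal 2, 13.00 in animal 4, 12.24 in animal 5, 11.28 in animal 6 and 13.28 in animal 8. A single 18 °C array, animal 7, lay below the top of the 10 °C group. Controls had 12.79 in animal 1, 13.81 in animal 2, 13.58 in animal 15, 11.90 in animal 17 and 12.36 in animal 23. Sons of 30 °C dams had 12.36 in animal 4, 12.11 in animal 5, 13.56 in animal 6, 12.13 in animal 7 and 12.97 in animal 8. The values of both groups overlapped with those at 10 °C and at 18 °C.

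The Pklr means were 12.49 ± 0.78 at 10 °C, 13.84 ± 0.54 at 18 °C, 12.89 ± 0.81 at 23 °C and 12.63 ± 0.63 at 30 °C (SD, n = 5), the order being 10, 30, 23 and 18 °C from low to high. Between the 2 cold-dam groups the difference was -1.35 ± 0.38 SE, a 2.55-fold lower level at 10 °C (limma adjusted p = 0.432, exact permutation p = 0.016). It ran from -1.56 to -1.05 when each array was left out in turn. The 18 °C sons stood 0.95 ± 0.38 above the controls (limma adjusted p = 0.470, exact permutation p = 0.056) and 1.21 ± 0.38 above the 30 °C sons (limma adjusted p = 0.408, exact permutation p = 0.016). The 10 °C sons stood at -0.40 ± 0.38 from controls (limma adjusted p = 0.730), at -0.10 without 10 °C animal 6 and at -0.65 without 23 °C animal 17. No straight trend fitted this order: the slope was -0.03 ± 0.23 per 10 °C, with a 95% interval from -0.50 to 0.45 (limma adjusted p = 0.986). The 4-group test gave a limma adjusted p of 0.388. Neighbouring groups in the order did not differ beyond the threshold, and neither did the extremes.

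Khk, the ketohexokinase that phosphorylates fructose at the entry to fructolysis, had the same order of group means as Pklr. Its values in 18 °C sons were 14.85 in animal 1, 14.73 in animal 3, 14.69 in animal 4, 14.77 in animal 5 and 14.02 in animal 7. The 10 °C sons had 14.25 in animal 2, 14.30 in animal 4, 14.16 in animal 5, 13.67 in animal 6 and 14.33 in animal 8. Of the 18 °C arrays, 4 lay above all 10 °C arrays, and animal 7 lay among them. The ranges at 23 °C (13.75 to 14.84) and 30 °C (13.78 to 14.78) overlapped both. Means were 14.14 ± 0.27, 14.61 ± 0.34, 14.35 ± 0.42 and 14.24 ± 0.37 (SD, n = 5) from 10 to 30 °C. The difference between 10 °C and 18 °C sons was -0.47 ± 0.21 SE (limma adjusted p = 0.586) and that between 18 °C and 30 °C sons 0.37 ± 0.21 (limma adjusted p = 0.677). The slope was 0.02 ± 0.11 per 10 °C, with a 95% interval from -0.20 to 0.25 (limma adjusted p = 0.978).

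Gpd1, the cytosolic enzyme that makes glycerol 3-phosphate from the glycolytic intermediate dihydroxyacetone phosphate, varied least at 18 °C. Its 18 °C values lay between 15.59 and 15.80, overlapping the upper part of the other groups, which reached from 15.09 to 15.63 at 10 °C, 15.03 to 15.75 at 23 °C and 14.996 to 15.65 at 30 °C. The 18 °C mean of 15.70 ± 0.09 stood 0.33 ± 0.16 SE above the 30 °C mean of 15.37 ± 0.27 (limma adjusted p = 0.589), and the 10 °C mean of 15.43 ± 0.22 differed from it by -0.28 ± 0.16 (limma adjusted p = 0.682). The control mean was 15.52 ± 0.29. The slope was -0.04 ± 0.081 per 10 °C, with a 95% interval from -0.21 to 0.12 (limma adjusted p = 0.928).

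Txnip, the thioredoxin-interacting protein that curbs glucose uptake and is a strongly glucose-responsive gene, averaged higher in sons of cold-exposed dams, although no difference passed over all clusters. Its log2 values at 10 °C were 11.14 in animal 2, 11.47 in animal 4, 10.94 in animal 5, 11.49 in animal 6 and 11.85 in animal 8. At 18 °C they were 11.93 in animal 1, 11.08 in animal 3, 11.31 in animal 4, 11.11 in animal 5 and 11.14 in animal 7. Controls had 10.43 in animal 1, 11.53 in animal 2, 10.61 in animal 15, 10.16 in animal 17 and 10.59 in animal 23. Of these controls, 4 lay below all arrays of the cold-dam groups, and animal 2 lay within their upper part. Sons of 30 °C dams had 11.31 in animal 4, 10.25 in animal 5, 11.04 in animal 6, 10.65 in animal 7 and 10.63 in animal 8. Their 2 highest arrays overlapped with the cold-dam groups.

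The Txnip means were 11.38 ± 0.35 at 10 °C, 11.31 ± 0.36 at 18 °C, 10.66 ± 0.52 at 23 °C and 10.78 ± 0.41 at 30 °C (SD, n = 5). The 10 °C sons stood 0.72 ± 0.24 SE above controls, a 1.64-fold higher level (limma adjusted p = 0.248, exact permutation p = 0.056), with 0.93 without 23 °C animal 2 and 0.59 without 23 °C animal 17 as the extremes when each array was left out. The 18 °C sons stood 0.65 ± 0.24 above controls (limma adjusted p = 0.440, exact permutation p = 0.040). Against 30 °C sons the differences were 0.60 (limma adjusted p = 0.691) for the 10 °C and 0.54 (limma adjusted p = 0.574) for the 18 °C group. The slope was -0.36 ± 0.12 per 10 °C (limma p = 0.00683, place 319 of 22206, limma adjusted p = 0.476, permutation p = 0.0147). With the background control level as a covariate it was -0.21 (limma adjusted p = 0.926). Its sign is opposite to that of Mlxipl, and the 2 genes had a correlation of 0.054 within groups.

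Time of day was not given, so a clock score was formed for each array. It was the mean log2 level of the evening genes Dbp, Tef, Per3, Nr1d2 and Ciart minus that of Arntl, Npas2, Clock and Nfil3. Of the evening genes, Tef lay below the negative control level of 4.75, with group means of 3.74 to 4.28. Group means of Ciart lay below that level except at 18 °C (4.05 at 30 °C, 5.23 at 18 °C). Of the genes subtracted, Npas2 had means below it at 18 °C (4.41) and 30 °C (4.47). The score varied more within groups than between them: its means were -0.39 ± 1.82 at 10 °C, 0.67 ± 2.00 at 18 °C, -0.82 ± 2.33 at 23 °C and 0.23 ± 1.74 at 30 °C (SD, n = 5). After subtraction of group means, Txnip followed it closely (Pearson r = 0.846 over 20 arrays, permutation p = 5.0e-05, adjusted p = 0.00070 over 14 relations; Spearman rho = 0.842, permutation p = 0.00010, adjusted p = 0.0014). Without the 2 arrays farthest from the median score r was 0.854. Of the 14 relations of the 7 genes with the clock score and the background control level, this was the only one that passed. For Pklr the correlation with the score was 0.570 (adjusted p = 0.125, permutation test) and for Mlxipl 0.216 (adjusted p = 0.655, permutation test).

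Once the clock score entered the fit, the Txnip slope was -0.38 ± 0.075 SE per 10 °C, and its limma p of 3.55e-05 held place 3 of the 22206 clusters (limma adjusted p = 0.224). The 18 °C sons then stood 0.39 above controls. The Mlxipl slope was 0.40 with the score as without it. For Pklr the difference between 10 °C and 18 °C sons was -1.14 with the score, and that between 18 °C sons and controls 0.65.

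**Figure D3:**
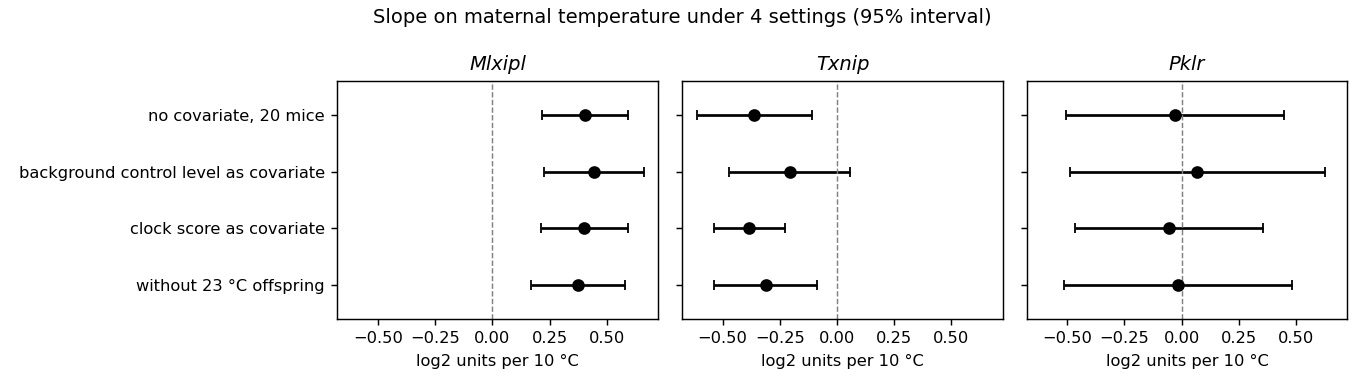
Slopes of Mlxipl, Txnip and Pklr on maternal temperature (horizontal axis, log2 units per 10 °C, with 95% intervals) in the fit without a covariate, with the background control level or the clock score as a covariate, and without the 23 °C sons. Mlxipl has slopes of 0.37 to 0.44, while Txnip runs from -0.38 with the clock score to -0.21 with the background level.

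Whether the targets followed ChREBP's own transcript from mouse to mouse was asked after subtraction of group means. Of the 6 targets, 0 had a correlation with Mlxipl that passed a permutation test within groups, adjusted over 6. Pearson's r was 0.470 for Gckr (permutation p = 0.0801, adjusted p = 0.365; rho = 0.414), and 0.118 without the 2 arrays farthest from the Mlxipl median. For Pklr r was 0.330 and for Khk 0.331 (adjusted p = 0.365 for both, permutation test), with rho = 0.254 and 0.260. The Pklr value was 0.080 without 10 °C animal 6. For Pfkl r was -0.284 and for Gpd1 -0.103. At the level of this RNA, with 20 arrays, a joint variation of Mlxipl with a target was thus not detectable.

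Pklr and Khk, the final enzyme of glycolysis and the entry enzyme of fructolysis, varied together between mice of the same group. Their Pearson r was 0.767 over 20 group-centred arrays (permutation p = 0.00079, adjusted p = 0.0166 over all 21 pairs of the 7 genes) and Spearman's rho 0.815 (permutation p = 0.00027, adjusted p = 0.00567). It was 0.639 without the 2 arrays farthest from the Pklr median, and ran from 0.716 without 23 °C animal 17 to 0.884 without 30 °C animal 8. The other 20 pairs did not pass. Among them, Pklr had r = 0.556 with Gckr and with Txnip (adjusted p = 0.154 and 0.158, permutation test), and Khk r = 0.483 with Txnip. In all, 16 of the 21 pairs had a positive r. The values of a mouse come from the same array and share its background level. Within groups, the correlation with the background control level was -0.010 for Pklr and -0.086 for Khk (adjusted p = 0.968 for both, permutation test). The part of that level in the pairs was not tested.

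**Figure D4:**
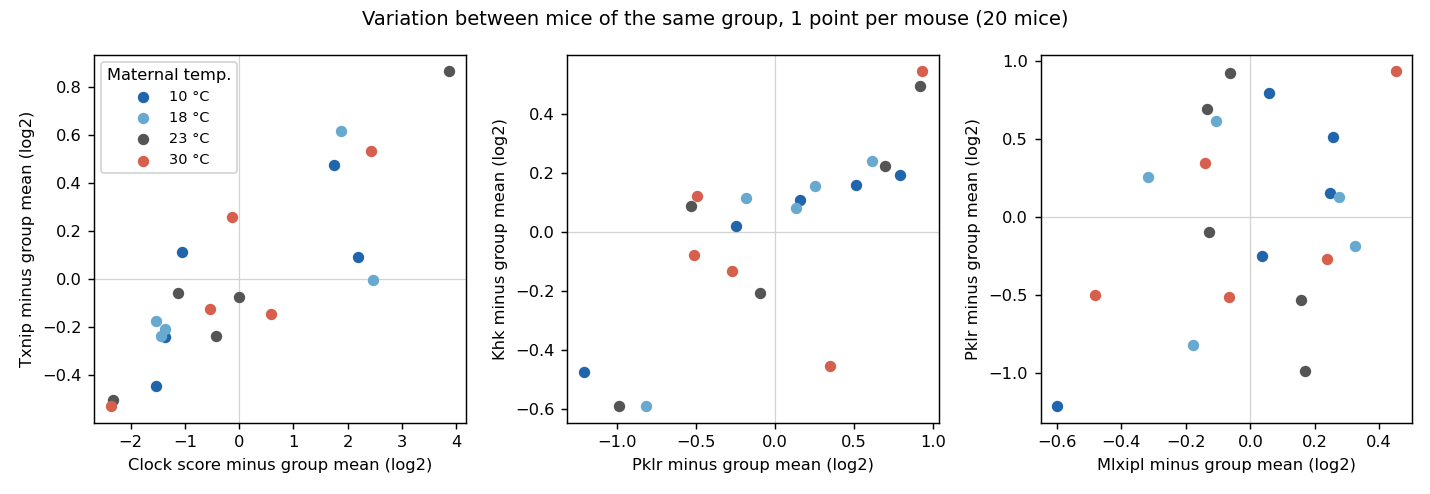
Group-centred log2 values of 20 mice, 1 point each and coloured by maternal temperature: Txnip against the clock score, Khk against Pklr, and Pklr against Mlxipl. The first 2 panels have r = 0.846 and 0.767, while in the last r is 0.330 and the lowest point on both axes is 10 °C animal 6.

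Among 9412 named clusters above the negative control level, the genes most like each member were ranked by the same group-centred correlation, as a description. For Mlxipl they were Scnn1a (r = 0.876), Zfp398 (0.819) and Pgghg (0.785). Those nearest to Pklr were Samd5 (r = 0.883), Thrsp (0.862) and Slc25a44 (0.824), with Khk at place 11. Khk had Fig4 (r = 0.839), Slc2a2 (0.827) and Yif1a (0.819) as its nearest, with Pklr at place 14. For Txnip they were Rgs16 (r = 0.889), Wee1 (0.875) and Bri3 (0.872). Gpd1 was nearest to Kmo (r = 0.868), Cyp2d40 (0.853) and Uck1 (0.852). The nearest of Gckr (Kars, Smarcb1 and Pdk2, r = 0.759 to 0.730) and of Pfkl (Laptm5, Uimc1 and Ndufa3, r = 0.799 to 0.749) complete the set.

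Beyond the 7 genes, lists of the same pathway were followed, and 0 genes of any list passed limma's test in any comparison. Of the 9 listed partners and regulators of ChREBP, 8 had a row. The partner Mlx had means of 10.34 ± 0.15 at 10 °C, 10.43 ± 0.12 at 18 °C, 10.56 ± 0.22 at 23 °C and 10.54 ± 0.31 at 30 °C (SD, n = 5), and a slope of 0.11 ± 0.070 SE per 10 °C (limma adjusted p = 0.703). Mlxip, the gene of the related glucose sensor MondoA, stood lowest at 30 °C (-0.54 ± 0.23 from controls, limma adjusted p = 0.978). Thrb, the thyroid hormone receptor beta, stood at -0.39 ± 0.16 in 18 °C sons against controls (limma adjusted p = 0.473). Bhlhe40 had a slope of 0.33 ± 0.20 (limma adjusted p = 0.689).

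Of 24 other glycolytic genes, 19 had a row, and 14 of these lay above the negative controls. The median difference between 10 °C and 18 °C sons was -0.14, with 13 of 19 lower at 10 °C, against a median of 0.000893 over all clusters. It was the largest in size of the pairwise comparisons. Genes below the negative control level are included, and this list too was chosen with earlier results of these data known. Aldoc, an aldolase, stood 1.32 ± 0.38 SE higher at 18 °C than at 30 °C (limma adjusted p = 0.372). Aldoa, another aldolase, stood 0.45 ± 0.15 above controls at 10 °C and 0.38 ± 0.15 at 30 °C (limma adjusted p = 0.233 and 0.978). Pgam1, a phosphoglycerate mutase, had a slope of -0.14 ± 0.061 (limma adjusted p = 0.566). Of 10 genes of sugar transport and fructose handling, 8 had a row. Tkfc, the triose kinase that acts after Khk in fructolysis, differed by -0.69 ± 0.24 between 10 °C and 18 °C sons (limma adjusted p = 0.492). Its group means had their highest value at 18 °C (14.29 ± 0.30, SD, n = 5), as for Khk. The urate and sugar transporter gene Slc2a9 stood 0.53 ± 0.20 above controls at 10 °C (limma adjusted p = 0.302), and Glyctk, a glycerate kinase, had a slope of 0.17 ± 0.085 (limma adjusted p = 0.626).

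Of 10 genes of glycerol phosphate and the pentose phosphate pathway, 7 had a row. Gpd2, the mitochondrial partner of Gpd1 in the glycerol phosphate shuttle, stood 0.79 ± 0.21 SE higher in 18 °C than in 30 °C sons (limma adjusted p = 0.352), with a slope of -0.31 ± 0.11 (limma adjusted p = 0.4999). Pgd, a dehydrogenase of the pentose phosphate pathway, stood at -0.66 ± 0.27 at 10 °C against 18 °C (limma adjusted p = 0.555), and Pgls, the lactonase before it, had a slope of 0.13 ± 0.065 (limma adjusted p = 0.633).

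The other carbohydrate response targets, 14 genes mainly of fat synthesis and all with a row, had their largest median differences between 18 °C sons and the 10 °C and 30 °C sons, without any gene passing. Of the 14, 12 lay above the negative controls. Fgf21 and Pnpla3, with mean log2 levels of 2.95 and 2.91, did not, but are included in the counts and medians. Between 18 °C and 30 °C sons 11 of 14 differences were positive, the median was 0.81, and 7 were higher at an unadjusted limma p under 0.05. Between 10 °C and 18 °C sons 11 of 14 were negative, the median was -0.65, and 7 were lower at that unadjusted p. Over all clusters, 8.21% and 8.1% passed it in these comparisons, both directions counted. Against controls the medians were -0.33 at 10 °C, 0.29 at 18 °C and -0.57 at 30 °C. The median over all clusters lay between -0.00555 and 0.00583 in each pairwise comparison. The list was put together with earlier results of these data known, so its direction is no independent evidence.

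Me1, the malic enzyme that supplies NADPH to fat synthesis, had means of 14.34 ± 0.67 at 10 °C, 15.43 ± 0.93 at 18 °C, 14.75 ± 0.40 at 23 °C and 13.63 ± 1.08 at 30 °C (SD, n = 5). Its difference between 18 °C and 30 °C sons was 1.79 ± 0.44 SE (limma adjusted p = 0.352). Thrsp, a lipogenic protein of the liver, ranged from 8.77 to 15.84 within the 10 °C group alone and had means of 13.04 ± 2.69, 16.32 ± 1.21, 15.06 ± 1.48 and 13.91 ± 1.60 from 10 to 30 °C. It differed by -3.27 ± 0.99 between 10 °C and 18 °C sons (limma adjusted p = 0.440). Scd1, the stearoyl-CoA desaturase, stood at -0.81 ± 0.28 in 30 °C sons against controls (limma adjusted p = 0.978). Angptl8, a feeding-induced regulator of lipoprotein lipase, was lowest in the 18 °C sons, with -2.57 ± 0.88 in 18 °C sons against controls (limma adjusted p = 0.397) and -1.91 ± 0.88 in 10 °C sons (limma adjusted p = 0.406).

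**Figure D5:**
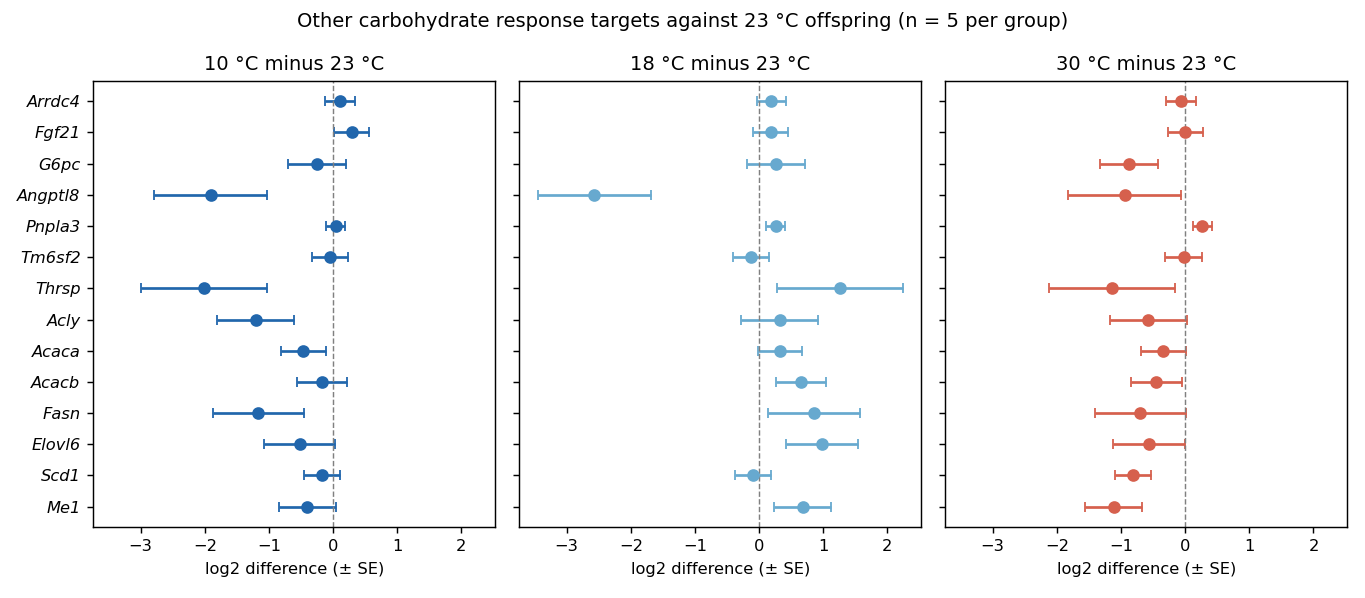
Log2 differences ± SE (horizontal axis) of the 14 other carbohydrate response targets in 10, 18 and 30 °C sons, each against the same 5 sons of 23 °C dams. The medians are -0.33, 0.29 and -0.57, and Angptl8 at -2.57 is the lowest point of the 18 °C panel. Fgf21 and Pnpla3 lay below the negative control level.

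Genes that report feeding and the clock were read beside these values, since ChREBP targets respond to recent meals. Of 9 feeding genes, 7 had a row, and their mean log2 level was 11.63 ± 0.40 at 10 °C, 11.78 ± 0.26 at 18 °C, 11.41 ± 0.45 at 23 °C and 11.19 ± 0.19 at 30 °C (SD, n = 5). G6pc, glucose-6-phosphatase, which is also a ChREBP target, had its highest mean at 18 °C (16.42 ± 0.27) and stood 1.14 ± 0.45 SE above 30 °C sons there (limma adjusted p = 0.528). The fasting genes Pdk4 and Cpt1a stood at 0.95 ± 0.40 and 0.42 ± 0.22 in 10 °C sons against controls (limma adjusted p = 0.364 and 0.455). All 12 clock genes had a row. Among them Nfil3 had a slope of -0.40 ± 0.19 (limma adjusted p = 0.597), Per2 of 0.20 ± 0.26 (limma adjusted p = 0.875), and Npas2 stood at -0.89 ± 0.48 in 18 °C sons against controls (limma adjusted p = 0.586). The Npas2 mean at 18 °C, 4.41, lay below the negative control level. The part of feeding in the results was not tested.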

How the data were processed

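Liver RNA of 20 mice was hybridised to Affymetrix arrays, 1 per mouse. The deposited values are log2 expression levels that the authors made with RMA (background correction, quantile normalisation and probe summary) and the Transcriptome Analysis Console, per the submitters' processing notes. No version, setting or genome build is given in the sources used here. Quantile normalisation hides any shift common to most transcripts, and RMA compresses differences of dim clusters. Of 28846 rows, 6640 control rows served only for array measures and 22206 transcript clusters were tested, 19572 of them with 1 symbol in the platform annotation. Columns left unused numbered 0.

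The fits used R 4.3.3 with the package limma 3.58.1 (eBayes after lmFit on all clusters, 4 group means, 20 arrays sharing 1 estimate of spread) for 6 pairwise comparisons and a moderated F-test, and in a second fit for the slope on maternal temperature per 10 °C. Tests were two-sided and p-values were adjusted over all clusters by Benjamini-Hochberg. Exact permutation tests used the 252 splits of 10 arrays, and the slope and the correlations 100000 permutations (numpy 2.4.6, scipy 1.17.1). Fits and correlations were tested on simulated data. The members, the gene lists and the markers were chosen with earlier results of these data known. The text names all members and, per list, the 2 genes with the smallest slope p and the 2 with the smallest 4-group p. A gene with several clusters was represented by the brightest. A level was called above the negative controls when its mean was over log2 4.75, the highest array mean of those rows. The correlations with Mlxipl were adjusted over 6 targets, since Pfkfb1 has no row. All 21 pairs and the 14 relations with array measures were added after seeing the data. No sign was found that animal numbers pair the arrays: of 11 same-numbered pairs, 1 had a correlation of deviations over 0.1. Such correlations cannot settle what the numbers stand for. Alternatives were variance trend, array weights, a filter on low values, renormalisation, covariates, blocks, leaving out arrays and other tests.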

Additional observations from a re-analysis of the deposited data

Results flagged for a closer look

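In 28 groups of 5 arrays, 4 for each of the 7 genes, a single array stood apart from its group in 5, by the gap to its nearest neighbour relative to the range. Chance alone marks about 1 in 20 groups. The Mlxipl level of 10 °C animal 6 was 11.34, below 11.98 in the next array. The same animal had the lowest Khk level of its group, 13.67, with 14.16 next. In 18 °C animal 7 the Khk level was 14.02, with 14.69 next. The Txnip level of 18 °C animal 1 was 11.93, above 11.31 in the next array. In 30 °C animal 8 the Pfkl level was 8.12, with 8.42 next. No cause of these values was tested.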

How the results depend on the processing

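In each of the 239 combinations of a setting and a comparison, 0 of the 7 genes passed limma's or the permutation test. The same settings recur across comparisons, and 20 of them leave out 1 array. The smallest limma adjusted p of a member was 0.128, for Mlxipl between 10 °C and 23 °C sons with array weights. Of the 1187 combinations of a setting with 1 of the 41 single values, 1167 kept direction and side of the threshold, 19 changed sign and 1 came to pass. The last is the correlation of Gckr with Mlxipl without centring on group means (r = 0.592, permutation adjusted p = 0.0356), which makes the number of targets correlated with Mlxipl 1 in place of 0. The Pklr slope was 0.0688 with the background control level as a covariate and 0.0600 with the animal number as a replicate block. Leaving out each array gave -0.22 to 0.0596 for the Pklr slope, -0.0524 to 0.0815 for Khk and -0.0965 to 0.00581 for Gpd1. The correlation of Txnip with Mlxipl was -0.449 without centring, -0.111 with the background level, -0.247 with the clock score and -0.0288 to 0.118 on leaving out an array. That of Pklr with Mlxipl was -0.0551 without the 2 arrays farthest from the Mlxipl median. For Gpd1 with Mlxipl it was 0.0228 with the background level and -0.276 to 0.0292 on leaving out an array. The cause was not tested. The replicate block used the animal numbers, for which no sign of pairing was found. It gave 0 called members and a Mlxipl slope of 0.44. With the block, Mlxipl was at -0.52 (10 against 23 °C) and -0.29 (18 against 23 °C). Txnip was at 0.45 and Pklr at -0.66 (both 10 against 23 °C). With the background level, Txnip was at 0.35 between 18 and 30 °C. The lowest mean level of the 7 genes, 8.51 for Pfkl, lay above the negative control level of 4.75.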
